A study of Mus musculus with 56 samples.

Results

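The comparison described here set 4 mice on daytime-restricted feeding (DRF) against 4 mice on nighttime-restricted feeding (NRF), all sampled at zeitgeber time 8 (ZT8), 8 h after lights on. These 8 mice were chosen by their labels from the 56 mice of the series, which covers 7 times with 4 mice per regimen at each. All were C57BL/6J females 9 weeks of age on chow, in a cycle of 12 h light and 12 h dark, and each had been on its regimen for 7 days. DRF mice could eat during the light period and NRF mice during the dark period, so that at ZT8 food had been available to DRF mice, and withheld from NRF mice, for 8 h. The tissue was the dissected anterior hypothalamus, a block of several nuclei that includes the suprachiasmatic and the paraventricular nucleus, and polyadenylated RNA was sequenced. The question was which transcripts of this tissue differed between mice that were fed and mice that were fasting in the same part of the light period.

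The anterior hypothalamus holds the suprachiasmatic nucleus, the light-entrained pacemaker of the brain, beside cell groups that control feeding, hormone release, body temperature and sleep. In each cell the clock is a loop in which CLOCK and BMAL1 (the product of Arntl) activate the Per, Cry and Nr1d genes, whose products in turn repress them, and output factors such as DBP pass the rhythm on. Feeding and fasting reach the brain through glucose, insulin, ketone bodies and glucocorticoids. Metallothioneins, small cysteine-rich proteins that bind zinc and copper, are transcribed in response to metals and to glucocorticoids.

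Values are given as log2(CPM + 1), where CPM is the normalized read count scaled to a common library size, so that a difference of 1 is close to a doubling for genes with many reads and is understated for genes with few. Normalized library sizes of the 8 mice lay between 30023880 and 31490822 reads. Replicates within a regimen had correlations of 0.993 to 0.998 across genes, and the reads of each pair differed by 4.05 to 22.1 times the sampling variance, so that no pair was 1 library counted again. Over the 16241 genes tested, the median within-group standard deviation (SD) was 0.101 in DRF and 0.0794 in NRF. DRF mouse 1 and NRF mouse 2 stood apart from the other 6 mice of the comparison on the first principal component, which held 35.2% of the variance, with scores of -19.0 and -15.0 against 0.153 to 14.5. The second component, with 23.3%, separated the regimens, with negative scores in all 4 DRF mice and positive scores in all 4 NRF mice.

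The labelled tissue was checked against its markers. All 16 markers of the anterior hypothalamus, among them Avp, Oxt, Six6 and Sim1, had reads in every mouse, and their summed level was 2420 to 3117 CPM in DRF and 2789 to 3596 CPM in NRF. The striatal and oligodendrocyte markers below had reads in every mouse too, so presence alone does not identify the region. Markers of neighbouring regions varied between the dissected blocks. The summed level of 7 striatal markers was 580.1, 231.7, 379.6 and 358.9 CPM in DRF mice 1 to 4 and 225.0, 504.8, 238.6 and 250.1 CPM in NRF mice 1 to 4. Both mice that stood apart were therefore the highest of their regimen, and they were also the highest for 10 oligodendrocyte markers, at 7742 CPM in DRF mouse 1 and 7124 CPM in NRF mouse 2, with 4798 to 6190 CPM elsewhere. DRF mouse 1 had in addition the highest summed level of 8 blood markers, 782.7 CPM against 221.3 to 473.0 CPM in the other 7 mice. No member of these 4 lists was at 0 in all 8 mice. The other marker lists (neurons, astrocytes, oligodendrocyte precursors, microglia, endothelium, mural cells and fibroblasts, ependyma and choroid plexus, pituitary, and the posterior and tuberal hypothalamus) had median differences between -0.066 and 0.16, and the blood list -0.23. The 8 posterior and tuberal markers, Kiss1 among them, still varied widely between mice of a regimen. Their summed level was 576.0, 1168.5, 742.1 and 624.6 CPM in DRF mice 1 to 4. In NRF mice 1 to 4 it was 785.2, 530.5, 796.5 and 1056.4 CPM. In bulk tissue, fewer cells of a type and less RNA per cell cannot be told apart.

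**Figure D1:**
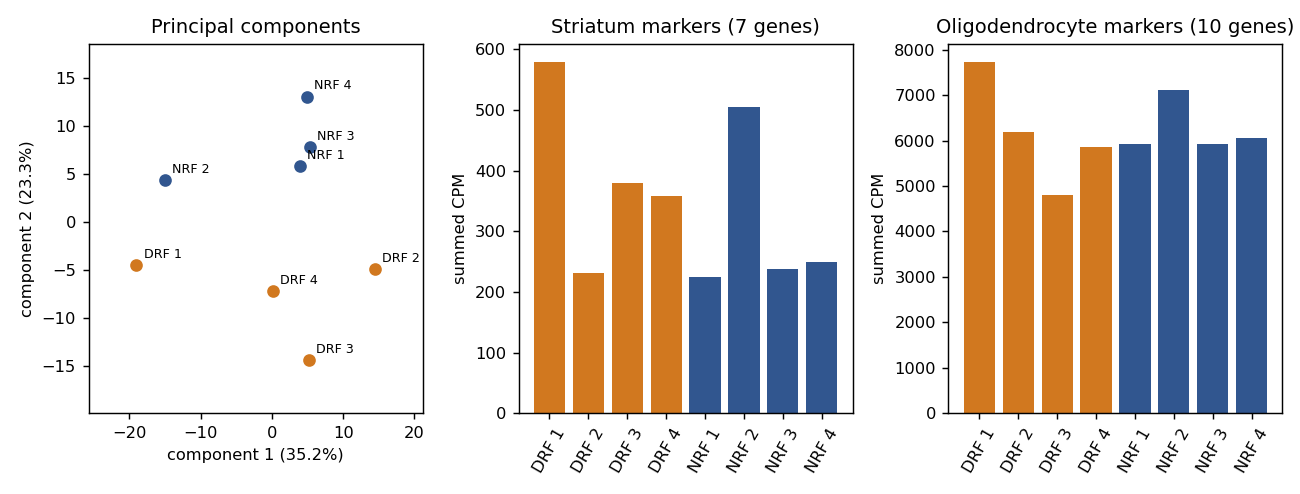
Left, the 8 mice at ZT8 on the first 2 principal components of log2(CPM + 1), with the share of the variance on each axis. Middle and right, bars of the summed CPM of 7 striatal and 10 oligodendrocyte markers in each mouse; DRF mouse 1 (580.1 and 7742 CPM) and NRF mouse 2 (504.8 and 7124 CPM) are the highest of their regimens.

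With limma and Benjamini-Hochberg adjustment, 1 of the 16241 genes had an adjusted p-value under 0.05 (0.00616% of the genes tested), and it was lower in DRF. Without adjustment, 1464 genes were higher in DRF at p under 0.05 (9.01%) and 1320 were lower (8.13%). The 4 DRF values lay above all 4 NRF values for 756 genes (4.65%) and below them for 811 genes (4.99%). The median absolute difference was 0.0763, and 49.8% of the genes had the lower mean in DRF. The count of calls rested on 1 mouse: without DRF mouse 1 it was 864, with 512 genes higher (3.15%) and 352 lower (2.17%) in DRF. Leaving out any of the other 7 mice gave 1 to 5 calls. Without both DRF mouse 1 and NRF mouse 2 the count was 468, and it was 5 without DRF mouse 1 when the trend of each library with gene length and GC content had been removed. Over the 56 mice of the series fitted together, which pools the spread of 14 groups, 28 genes were called at ZT8, 9 higher and 19 lower. In that same fit 378 genes were higher and 339 lower at ZT0, 454 and 183 at ZT4, 156 and 85 at ZT12, 1071 and 2173 at ZT16, 88 and 97 at ZT20, and 29 and 17 at ZT24. The counts thus differed widely between ZT0 and ZT24, the same point of the light cycle in separate mice. A low count at ZT8 can therefore not be read as a trait of that time.

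The gene called at ZT8 was Mt2 (Gene ID 17750), which encodes metallothionein 2. It lies on chromosome 8 from 94172618 to 94173567 in GRCm38.p6. Its level in DRF mice 1 to 4 was 6.38, 6.22, 6.33 and 6.23, and in NRF mice 1 to 4 it was 7.02, 7.18, 6.92 and 7.23. The highest DRF mouse was thus well below the lowest NRF mouse. On the scale of CPM + 1 the DRF level was 0.576 of the NRF level, with 2269 to 4659 reads per mouse behind the values. Mt2 was lower in DRF than in NRF by 0.80 (standard error 0.068, adjusted p = 0.00408 by limma). It was called without each of the 8 mice in turn, with log2 differences of -0.85 to -0.75. On the logarithm of the deposited values, which compresses differences between abundant genes, the adjusted p-value was 0.0780 with a pseudocount of 1 and 0.0811 with a pseudocount of 0.1.

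The 250 bases before the transcription start of Mt2 are shown because the response of metallothionein genes to metals is known to pass through short metal response elements in this region. The RefSeq sequence of GRCm38.p6, chr8:94172368-94172617, plus strand, 5′ to 3′, has each match to the pattern TGCNCNC, on either strand, in capitals. This pattern is looser than the core of that element, TGCRCNC, in which R is A or G. Some of the matches have T at that base, so not all are core matches.
Mt2: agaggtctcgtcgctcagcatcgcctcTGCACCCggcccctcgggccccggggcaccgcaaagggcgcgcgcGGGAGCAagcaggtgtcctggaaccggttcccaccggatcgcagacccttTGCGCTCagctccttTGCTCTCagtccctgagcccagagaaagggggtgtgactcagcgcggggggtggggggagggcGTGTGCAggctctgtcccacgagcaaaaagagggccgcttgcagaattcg
The stretch held 5 matches to the looser pattern, 3 on the strand of the gene and 2 on the other. Matches to the core alone were not counted over all stretches. Of 32817 such upstream stretches in the RefSeq table, 44.4% held at least 1 match and 0.344% held 5 or more. A match describes the letters and does not show that a factor was bound.

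Mt1 (Gene ID 17748) is the neighbouring metallothionein gene. Its values were 7.99, 7.55, 7.58 and 7.54 in DRF and 7.83, 8.08, 7.86 and 8.0 in NRF. In 3 DRF mice Mt1 was below every NRF mouse, while DRF mouse 1 was inside the NRF range. Its difference of -0.28 (standard error 0.098) did not pass the test with all 8 mice (adjusted p = 0.205 by limma), and without DRF mouse 1 it was -0.38 (adjusted p = 0.0269). With length and GC trends removed as well, Mt1 was not called (adjusted p = 0.0817). Both genes belong to a list of 24 tested glucocorticoid targets. Most members had the other direction: 20 of the 24 had the higher mean in DRF, and Mt2 was the only member called. The median of the list was 0.12 against 0.00054 over all genes tested. At an unadjusted p-value under 0.05 by limma, 4 of the 24 were higher and 2 lower, beside 9.01% and 8.13% of all genes. In 1 of the 24 every DRF mouse was above every NRF mouse, beside 4.65% of all genes tested. List medians per mouse, relative to the mean of all 8, overlapped, at -0.055 to 0.172 in DRF and -0.136 to 0.062 in NRF. Klf9, a transcription factor that responds to glucocorticoid and thyroid hormone, was 6.23, 6.11, 6.32 and 6.20 in DRF and 5.99, 6.03, 5.94 and 6.01 in NRF, with groups that did not overlap (difference 0.22, adjusted p = 0.124 by limma). Sgk1, a kinase gene of the same list, was 5.14 to 6.20 in DRF and 4.67 to 5.68 in NRF (difference 0.61, adjusted p = 0.247).

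A further 62 genes lay between adjusted p-values of 0.05 and 0.1, the smallest of them 0.0599, and those named here did not pass the threshold. Abca1, which encodes a cholesterol exporter of the cell membrane, was 5.92, 5.89, 6.01 and 5.93 in DRF and 5.46, 5.52, 5.65 and 5.53 in NRF (difference 0.40, standard error 0.049, adjusted p = 0.0599 by limma). The regimens did not overlap, and the spread within each was narrow. Dio2, the deiodinase that converts thyroxine to active thyroid hormone in glia, had the values 3.70, 3.42, 3.34 and 3.39 in DRF and 2.33, 2.85, 2.52 and 2.71 in NRF, from 124 to 360 reads per mouse. Its difference of 0.86 (standard error 0.122, adjusted p = 0.0722) was the largest among the genes named in this paragraph. Hspa2, of the heat-shock protein 70 family, was 4.88, 4.90, 5.02 and 4.97 in DRF and 4.61, 4.47, 4.61 and 4.58 in NRF (difference 0.37, adjusted p = 0.0750). Hmgn2, a nucleosome-binding protein gene, was 6.46 to 6.61 in DRF and 6.77 to 6.85 in NRF (difference -0.28, adjusted p = 0.0722). Utrn, the gene of the dystrophin relative utrophin, was 6.27 to 6.42 in DRF and 6.02 to 6.07 in NRF (difference 0.29, adjusted p = 0.0722). Abca1, Hspa2 and Hmgn2 had adjusted p-values of 0.0494, 0.0362 and 0.0494 in the fit over all 56 mice, and Dio2 and Utrn 0.0801 and 0.0545.

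**Figure D2:**
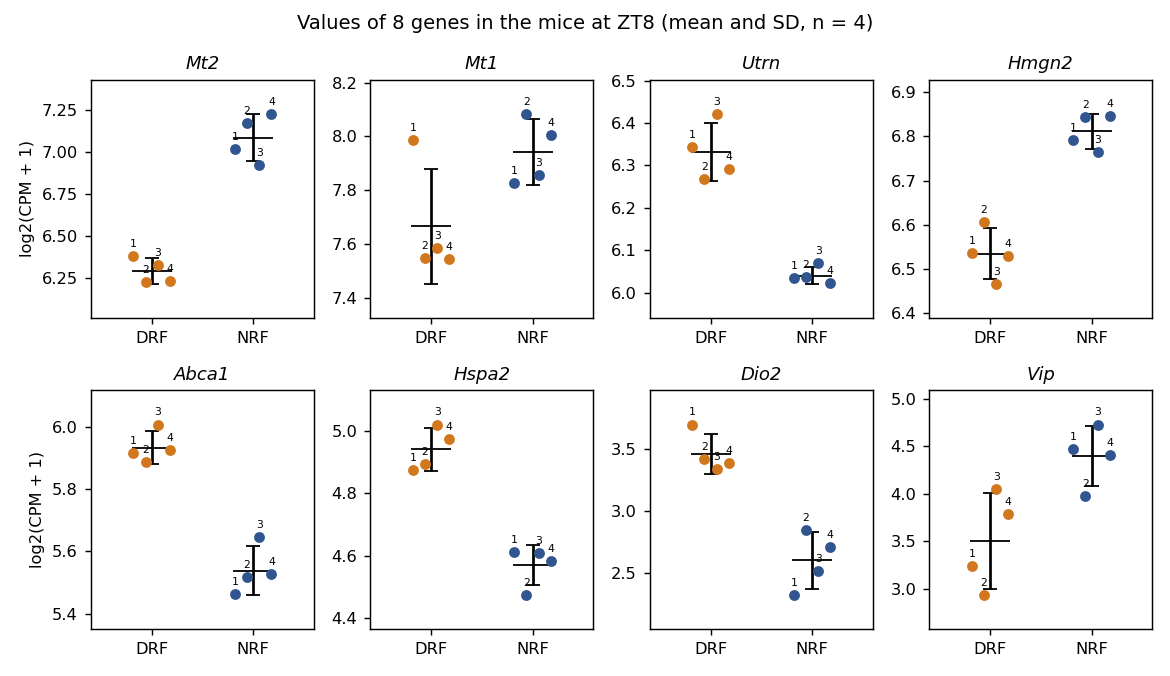
Level in log2(CPM + 1) of 8 genes in each mouse at ZT8 (points, numbered by mouse), with the mean and SD of 4 mice (black). Mt2 is the gene called; its DRF mice sit at 6.22 to 6.38 and its NRF mice at 6.92 to 7.23. DRF mouse 1 of Mt1 (7.99) lies inside the NRF range.

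Gene lists gave a count of 0 called members each, apart from the glucocorticoid targets, so they are described by counts at an unadjusted p-value under 0.05 and by their medians, beside 9.01% higher, 8.13% lower and a median of 0.00054 over all genes. Of 27 tested genes of the cytosolic heat-shock response, 23 had the higher mean in DRF, 8 passed the unadjusted threshold upward and 0 downward, and the median difference was 0.096. In 6 of the 27 every DRF mouse was above every NRF mouse, beside 4.65% of all genes tested. Chordc1, a partner of the chaperone HSP90, was 5.98, 6.22, 6.16 and 6.11 in DRF and 5.92, 5.87, 5.76 and 5.77 in NRF (difference 0.29, adjusted p = 0.113 by limma). Hspa1b, an inducible heat-shock protein 70 gene, was 2.84, 2.34, 2.52 and 2.60 in DRF and 2.08, 2.01, 2.21 and 1.90 in NRF (difference 0.53, adjusted p = 0.124). Reads of Hspa1b can be shared with its near-identical copy Hspa1a, so that its value is uncertain. Without DRF mouse 1, 4 of the 27 were called higher and 0 lower, Hspa2 and Chordc1 among them (adjusted p = 0.0269 for each), beside 3.15% of all genes higher under that setting. With length and GC trends removed as well, 1 of the 27 was called higher, beside 2 of 15916 genes.

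Genes of oxidative phosphorylation had the lower mean in DRF almost without exception, but by small amounts. Of 78 nuclear-encoded subunits of the respiratory chain and ATP synthase, 74 were lower, 13 of them at an unadjusted p-value under 0.05, and the median was -0.11. In 4 of the 78 every DRF mouse was below every NRF mouse, near the share of 4.99% over all genes tested. Ndufv3, a complex I subunit, was 5.92, 5.85, 5.78 and 5.84 in DRF and 6.12, 6.22, 6.07 and 6.22 in NRF (difference -0.31, standard error 0.048, adjusted p = 0.0750 by limma). Sdhc, which anchors complex II in the membrane, was 6.45 to 6.63 in DRF and 6.67 to 6.83 in NRF (difference -0.19, adjusted p = 0.144). The mice did not separate cleanly by the median of this list: DRF mice 1 to 4 stood at 0.104, -0.085, -0.187 and -0.066 relative to the mean of all 8, and NRF mice 1 to 4 at 0.054, 0.150, -0.048 and 0.047. DRF mouse 1 was thus above 3 of the NRF mice. Without it, 11 of the 78 were called lower and 0 higher, beside 2.17% of all genes lower. Without DRF mouse 1 and NRF mouse 2 the count was 2, beside 174 of all 16241 genes called lower. Without DRF mouse 1 and with length and GC trends removed the count was 0, beside 3 of 15916 genes. With all 8 mice and the trends removed the median was -0.062.

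Cytosolic ribosomal protein genes, proteasome subunits and genes of lysosome and autophagy were described in the same way. Of 78 ribosomal protein genes 65 had the lower mean in DRF (median -0.065), and the median was -0.017 with length and GC trends removed. Of the 78, 7 passed the unadjusted threshold downward (8.97%) and 0 upward, near the 8.13% of all genes that passed it downward. In 0 of the 78 was every DRF mouse below every NRF mouse, beside 4.99% of all genes tested. By the median of these genes DRF mouse 1 was the highest of the 8 mice, at 0.097 against 0.00025 to 0.077 in NRF. Of 32 proteasome subunits 27 were lower (median -0.064), with 5 and 0 past that threshold. Of 57 lysosomal and autophagy genes 46 were lower (median -0.063), with 17 past the threshold downward and 1 upward. Npc2, which carries cholesterol out of lysosomes, was 6.19, 6.21, 6.10 and 6.15 in DRF and 6.33, 6.30, 6.31 and 6.39 in NRF (difference -0.17, adjusted p = 0.128 by limma). Ctsd, the gene of the lysosomal protease cathepsin D, was 8.57 to 8.72 in DRF and 8.74 to 8.82 in NRF (difference -0.16, adjusted p = 0.144). The member in the other direction, Ulk2, a kinase that starts autophagy, was 6.61 to 6.75 in DRF and 6.49 to 6.55 in NRF (difference 0.15, adjusted p = 0.138). For all 3 genes the regimens did not overlap.

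Receptors, channels and splicing factors leaned the other way. Of 38 GABA and glutamate receptor genes 29 had the higher mean in DRF (median 0.058), 13 of them past the unadjusted threshold and 0 downward. Gabra2, a subunit of the GABA-A receptor, was 5.60, 5.86, 5.73 and 5.64 in DRF and 5.47, 5.41, 5.38 and 5.36 in NRF (difference 0.31, adjusted p = 0.0949 by limma). Grin3a, a subunit of NMDA receptors, was 6.93 to 7.10 in DRF and 6.80 to 6.86 in NRF (difference 0.20, adjusted p = 0.124). Of 39 potassium and HCN channels 33 were higher (median 0.091), with 9 and 0 past the threshold, and Kcnma1, the large-conductance channel gated by calcium and voltage, was 7.38 to 7.65 in DRF and 7.25 to 7.39 in NRF. Of 47 SR and hnRNP splicing factors 27 were higher, with 13 past the threshold upward and 3 downward. The median of the splicing factors was 0.027, and it was -0.017 once length and GC trends had been removed, while the medians of the receptors and of the channels were 0.035 and 0.043. Hnrnpm was 6.57, 6.61, 6.63 and 6.57 in DRF and 6.31, 6.36, 6.41 and 6.39 in NRF (difference 0.23, adjusted p = 0.0750). Beside these lists, 7 of 10 neuronal markers had the higher mean in DRF, with a summed level of 6491 to 7110 CPM in DRF and 6209 to 6936 CPM in NRF, and 7 of 7 striatal markers did, with a median difference of 0.45. Of the striatal and neuronal markers none was at 0, and their part in the differences was not tested.

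**Figure D3:**
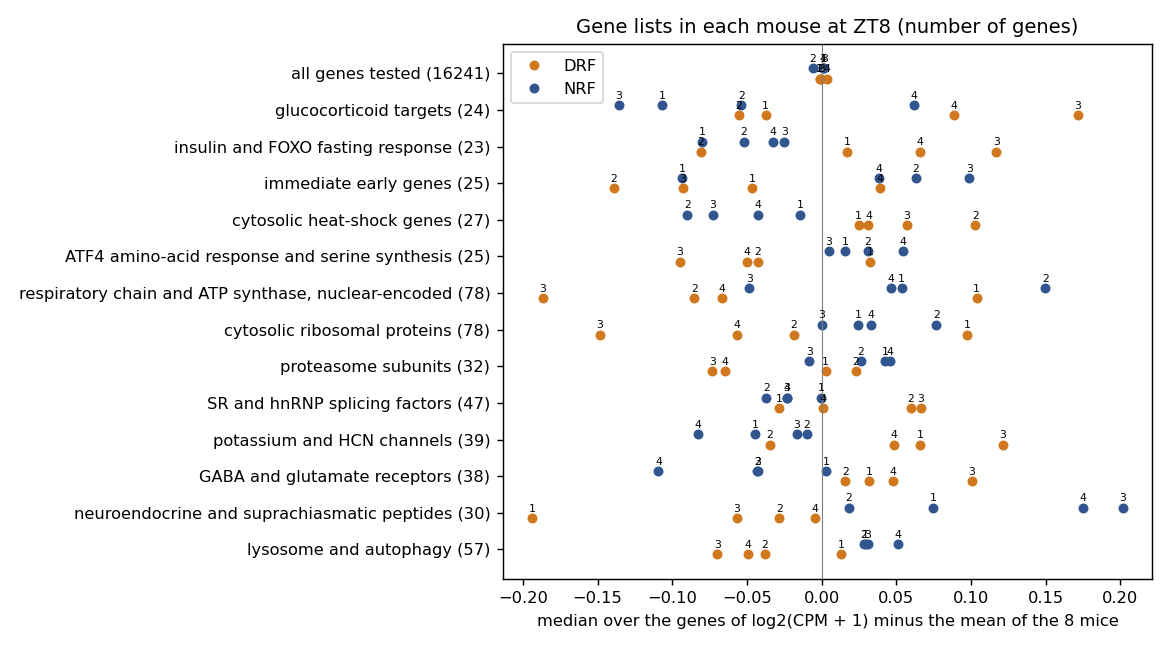
For 13 gene lists and all genes tested, each point is 1 mouse at ZT8: the median over the genes of its log2(CPM + 1) minus the mean of the 8 mice. For the respiratory chain and ATP synthase, DRF mouse 1 (0.104) and NRF mouse 3 (-0.048) lie on the side of the other regimen; for cytosolic heat-shock genes the 4 DRF mice (0.025 to 0.103) lie above the 4 NRF mice (-0.090 to -0.014).

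Neuropeptide genes had the lowest median of the lists examined other than cell and region markers, -0.20 for 30 neuroendocrine and suprachiasmatic peptides and receptors. Of these, 20 had the lower mean in DRF, 10 passed the unadjusted threshold downward and 1 upward, and 0 were called. Vip, a peptide of the ventral suprachiasmatic nucleus that keeps its neurons in step, was 3.24, 2.94, 4.05 and 3.79 in DRF and 4.47, 3.97, 4.73 and 4.40 in NRF (difference -0.89, standard error 0.231, adjusted p = 0.138 by limma). Its groups overlapped by 1 mouse of each regimen. Kiss1, which drives gonadotropin-releasing neurons, was 1.11, 1.2, 1.44 and 1.69 in DRF and 2.51, 1.96, 2.41 and 1.88 in NRF (difference -0.83, adjusted p = 0.105). Gal, the gene of galanin, a peptide of preoptic sleep-active and feeding-related neurons, was 4.80, 4.99, 4.92 and 5.04 in DRF and 5.53, 5.08, 5.63 and 5.57 in NRF (difference -0.52, adjusted p = 0.124). For Kiss1 and Gal every DRF mouse was below every NRF mouse, by a narrow margin. Such a separation downward was found in 4 of the 30 genes, beside 4.99% of all genes tested. The values of Kiss1 rested on only 35 to 145 reads per mouse. Nms, a suprachiasmatic peptide, was 1.52 to 1.88 in DRF and 2.03 to 2.41 in NRF (difference -0.49, adjusted p = 0.130). Trh, which controls thyrotropin release, was 6.96 to 7.30 in DRF and 7.21 to 7.78 in NRF (difference -0.44, adjusted p = 0.137).

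The vasopressin and oxytocin genes varied more between mice of a regimen. Avp was 6.65, 6.69, 7.31 and 7.61 in DRF and 7.34, 7.29, 7.69 and 7.93 in NRF (difference -0.50, adjusted p = 0.272 by limma). Oxt was 7.67, 7.75, 8.05 and 8.18 in DRF and 8.39, 8.24, 8.56 and 7.88 in NRF (difference -0.35, adjusted p = 0.254). Of the 16 markers of the anterior hypothalamus, which include Vip, Gal, Avp and Oxt, 14 had the lower mean in DRF, with a median of -0.15. Of 8 markers of thalamus and cortex 6 had the higher mean in DRF, with a median of 0.33 and a summed level of 153.6 to 191.2 CPM in DRF and 116.4 to 179.0 CPM in NRF. Slc17a7, a vesicular glutamate transporter of cortex and thalamus, was 3.47, 2.93, 3.45 and 2.40 in DRF and 3.10, 2.21, 1.92 and 1.04 in NRF. Tcf7l2, a transcription factor of thalamic neurons, was 5.47 to 5.66 in DRF and 4.55 to 5.59 in NRF. None of these thalamic and cortical markers was at 0 in all mice, and the part of differences in the dissected block in the neuropeptide values was not tested.

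Of 20 clock genes tested at ZT8, 0 were called with all 8 mice. Nr1d1, the repressor REV-ERB alpha, was 6.83, 6.77, 6.86 and 6.93 in DRF and 7.02, 7.15, 7.07 and 7.18 in NRF (difference -0.26, standard error 0.048, adjusted p = 0.0905 by limma). Dbp, an activator of output genes, was 6.32, 6.12, 6.25 and 6.28 in DRF and 6.45, 6.61, 6.56 and 6.53 in NRF (difference -0.30, standard error 0.052, adjusted p = 0.0850). Cry1 was 4.44, 4.62, 4.61 and 4.55 in DRF and 4.71, 4.64, 4.78 and 4.63 in NRF (difference -0.13, adjusted p = 0.283). In these 3 genes all DRF mice were below all NRF mice, beside 4.99% of all genes tested, and in the other 17 the regimens overlapped. Without DRF mouse 1, Nr1d1 and Dbp were called lower in DRF (adjusted p = 0.0340 and 0.0269), and Clock and Nr1d2 higher (adjusted p = 0.0339 and 0.0391). With length and GC trends removed as well, none of these 4 was called, at adjusted p-values of 0.0987 for Nr1d1, 0.0817 for Dbp, 0.514 for Clock and 0.139 for Nr1d2. Without DRF mouse 1 and NRF mouse 2, Nr1d2 was not called either (adjusted p = 0.0579). With all 8 mice, Clock was 6.34, 6.59, 6.68 and 6.54 in DRF and 6.38, 6.38, 6.42 and 6.29 in NRF (difference 0.17, adjusted p = 0.238), and its difference had an adjusted p-value of 0.825 once length and GC trends were removed. Nr1d2, the relative of Nr1d1, was 7.03, 7.20, 7.35 and 7.20 in DRF and 7.08, 7.00, 7.09 and 7.02 in NRF, a difference of 0.15 in the direction opposite to that of Nr1d1.

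The Per genes and Arntl had overlapping regimens. Per1 was 5.68 to 6.12 in DRF and 5.87 to 6.11 in NRF (difference -0.041, standard error 0.095), Per2 was 5.03 to 5.40 and 5.19 to 5.35 (difference -0.040, standard error 0.083), and Per3 was 6.04 to 6.27 and 5.91 to 6.22 (difference 0.13, standard error 0.072). Arntl, the gene of BMAL1, was 4.79 to 4.98 in DRF and 4.84 to 5.06 in NRF (difference -0.10, standard error 0.062). Rora, which activates Arntl, was 6.04 to 6.37 in DRF and 5.80 to 6.18 in NRF (difference 0.24, standard error 0.096), and it is also among the markers of thalamus and cortex. Npas2, a relative of Clock, had the widest spread of the 20 within the regimens, with 4.37 in NRF mouse 2 against 3.59 to 3.77 in the other NRF mice and 4.14 in DRF mouse 1 against 3.64 to 3.89 in the other DRF mice. Cry2, Bhlhe40, Bhlhe41, Ciart, Rorb, Tef, Hlf and Nfil3 had differences of -0.095 to 0.102.

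**Figure D4:**
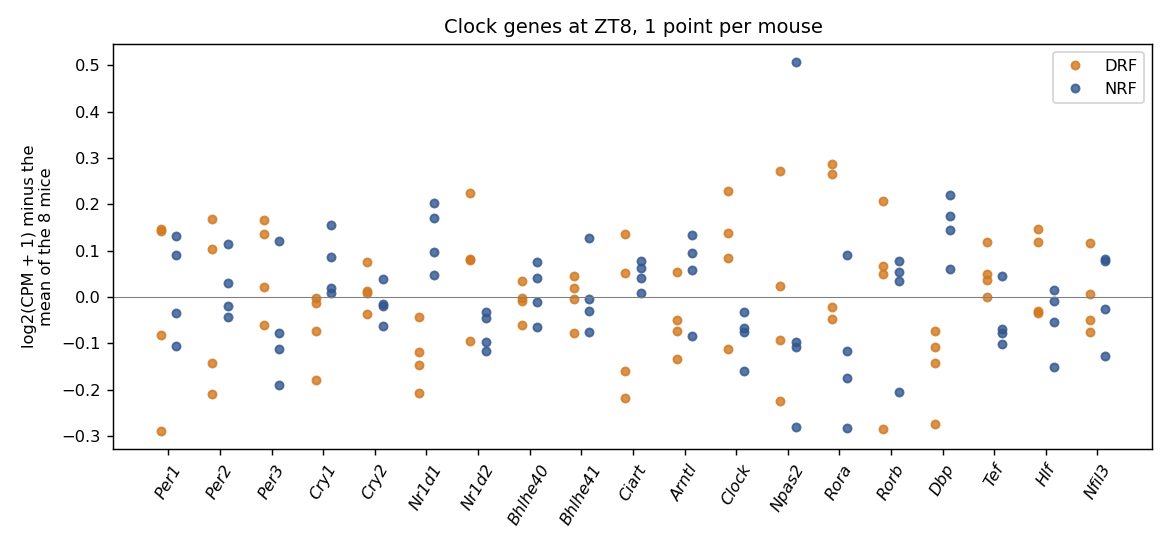
For 19 of the 20 clock genes, log2(CPM + 1) of each mouse at ZT8 minus the mean of the 8 mice. Nr1d1, Dbp and Cry1 have all DRF mice below all NRF mice; the other genes shown overlap.

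Genes of fuel use were examined because the regimens differed in feeding state. Of 28 genes of ketone use and fatty acid oxidation, 22 had the lower mean in DRF (median -0.054), 4 past the unadjusted threshold downward and 1 upward. Ucp2, a mitochondrial carrier, was 6.46 to 6.54 in DRF and 6.56 to 7.03 in NRF (difference -0.27, adjusted p = 0.162 by limma). Of 23 genes of the insulin and FOXO fasting response 17 had the higher mean in DRF (median 0.088), with 6 upward and 3 downward. Pik3r1, the regulatory subunit of the insulin-signaling lipid kinase, was 6.63, 6.70, 6.82 and 6.71 in DRF and 6.55, 6.49, 6.51 and 6.41 in NRF (difference 0.22, adjusted p = 0.124). Of 26 feeding peptides and receptors 14 had the higher mean, with 2 upward and 5 downward, and Nts, the gene of neurotensin, was 4.93 to 5.47 in DRF and 5.33 to 5.80 in NRF (difference -0.40, adjusted p = 0.158).

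The other lists were counted at the same unadjusted threshold. There were 3 upward and 2 downward of 25 immediate early genes (median -0.16), 5 and 2 of 25 endoplasmic reticulum chaperones (median 0.033), 2 and 4 of 25 ATF4 response genes (median -0.090), and 5 and 5 of 36 genes of cholesterol and fatty acid synthesis (median 0.0082). Of 27 Hippo pathway genes 7 were past it upward and 0 downward (median 0.077), and Wwc1, an upstream regulator of the pathway, was 5.72, 5.72, 5.72 and 5.80 in DRF and 5.47, 5.55, 5.42 and 5.45 in NRF (difference 0.27, adjusted p = 0.0750 by limma). Of 12 genes of thyroid hormone handling, Dio2 among them, 3 were upward and 1 downward. There were 0 upward and 1 downward of 20 aminoacyl-tRNA synthetases, 0 and 1 of 18 genes of NAD salvage, and 0 and 2 of 37 of amino acid degradation. Of 3 cold-inducible RNA-binding proteins, Rbm3 was 6.24 to 6.51 in DRF and 6.08 to 6.32 in NRF (difference 0.21) while Cirbp was 6.26 to 6.52 and 6.49 to 6.58 (difference -0.19), both with overlapping groups.

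To ask which differences belonged to ZT8 rather than to the regimen at all times, the difference at ZT8 was compared with the mean difference at the other 6 times in 1 limma fit over 56 mice. Among these, ZT0 and ZT24 are the same point of the light cycle in separate mice, so lights-on has more weight in that mean than any other time. Of 16241 genes, 28 passed. The DRF minus NRF difference at ZT8 was higher than that mean in 8 of them (0.0493%) and lower in 20 (0.123%). In 24 of the 28 the regimens did not overlap at ZT8, beside 1567 of all 16241 genes tested. The same ZT8 values enter the contrast that picked the 28, so this separation is not separate support. Of the 28, only Mt2 was also called in the comparison of the 8 mice alone. The contrast of Mt2 was -1.11 (standard error 0.133, adjusted p = 1.2e-06). Its DRF minus NRF difference was 0.60 at ZT0, -0.60 at ZT4, -0.80 at ZT8, -0.53 at ZT12, 0.36 at ZT16, 1.24 at ZT20 and 0.83 at ZT24. Mt2 was therefore lower in DRF at the 3 times from ZT4 to ZT12 and higher at the other 4, and each of the 7 differences had an adjusted p-value under 0.05 in that fit, the largest being 0.0310. Mt1 gave 0.57, 0.13, -0.28, -0.42, 0.11, 0.69 and 0.56 at the 7 times in the same order (contrast -0.55, adjusted p = 0.0297).

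Other genes with a lower difference at ZT8 are given singly. H1f0 and H1f2, which encode linker histones, had contrasts of -0.36 (adjusted p = 0.00374 by limma) and -0.66 (adjusted p = 0.0185). At ZT8 H1f0 was 6.63, 6.56, 6.38 and 6.48 in DRF and 6.81, 6.87, 6.75 and 6.80 in NRF, and H1f2 was 2.90 to 3.11 in DRF and 3.38 to 3.46 in NRF. For H1f0 the differences were -0.31 at ZT4, -0.29 at ZT8 and -0.15 at ZT12, and for H1f2 they were -0.12, -0.44 and -0.32. Both genes had the lower mean in DRF at the neighbouring times too. Pspc1, a paraspeckle protein, Parn, a poly(A) ribonuclease, and Nle1, a ribosome assembly factor, had contrasts of -0.27, -0.26 and -0.37. Icosl, a ligand of T cell costimulation, had a contrast of -0.58 (adjusted p = 1.1e-04), with 2.50 to 2.74 in DRF and 2.87 to 3.11 in NRF at ZT8. In the other direction, Zcchc7, an RNA-surveillance factor, had a contrast of 0.34 and the values 5.28, 5.37, 5.31 and 5.28 in DRF and 5.08, 4.95, 5.07 and 5.05 in NRF at ZT8. Prdm10, a zinc finger transcription factor, had a contrast of 0.33, Unc13b, a synaptic vesicle priming factor, 0.32, Tmc7 0.31 and Exd2, a nuclease, 0.24.

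These contrasts are set against times that differ widely, and ZT8 was also compared with its neighbours alone. Against ZT4 and ZT12 alone, 0 of the 16241 genes were called (limma, 611 higher and 1031 lower at an unadjusted p-value under 0.05), and without ZT16 there were 160. Across the mice at ZT8, leaving out 1 in turn gave 8 to 32 calls, with 8 calls without DRF mouse 3 or without NRF mouse 4, 11 without NRF mouse 2, 13 without DRF mouse 4 and 17 without NRF mouse 1. Mt2, Icosl and H1f0 were called in 18 of 19 alternatives, the exception being the comparison with ZT4 and ZT12. The calls of the other genes named here were lost more often. Of 19 alternatives Prdm10 was called in 16, Zcchc7, Exd2 and Tmc7 in 14, Nle1 in 13, H1f2 in 11, Mt1, Pspc1 and Unc13b in 10 and Parn in 9. Zcchc7, Exd2 and Unc13b were among the calls lost with length and GC trends removed.

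**Figure D5:**
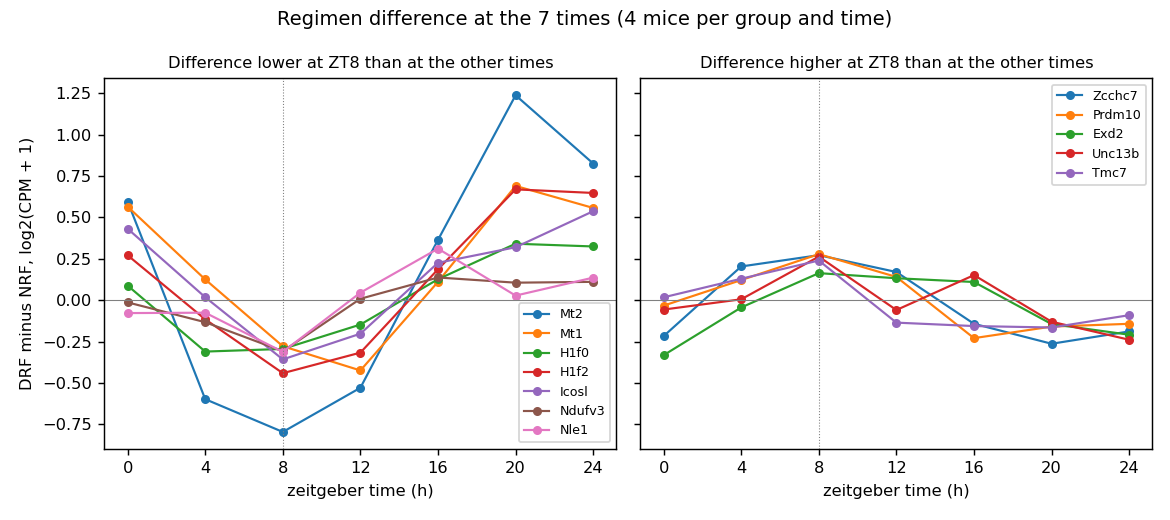
DRF minus NRF difference of the group means in log2(CPM + 1) at the 7 times (4 mice per group and time). The left panel has 7 genes with a difference at ZT8 lower than the mean of the other 6 times, and the right panel 5 with a higher one. Mt2 runs from -0.80 at ZT8 to 1.24 at ZT20; the dotted line marks ZT8.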

How the data were processed

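Polyadenylated RNA from the anterior hypothalamus of 56 mice was sequenced as paired ends, and the 8 mice at ZT8 are described. Per the study's methods, the authors cleaned reads with SOAPnuke, mapped them with HISAT2 to GRCm38.p6, aligned them to coding genes with Bowtie2, quantified them with RSEM, normalized the counts by TMM in edgeR and converted them to TPM. The deposited values for 17564 genes are used here as a score, since they are not TPM in the usual sense: in genes with few reads each further read adds less than the one before, as it would if the logarithm of CPM + 1 had been taken, the result divided by the length of the gene and every mouse brought to the same total. That form was inverted to recover log2(CPM + 1) for 17560 genes. It predicted the steps with a median relative deviation of 2.07e-08, and 99.841% of nonzero values of resolved genes were within 0.02 read of a whole number. The recovered scale is therefore an inference from the values, and lengths within 1% of the exon union were found for 94.6% of 16883 genes. All 56 columns of mice were mapped and 0 were left unused.

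Following the study's filter, genes were kept if their deposited value reached 1 in 80% or more of the mice, and 16241 of them were tested. Gene IDs were named with the RefSeq table of GRCm38.p6, 17456 of 17564 having a symbol. The 4 DRF and 4 NRF mice were compared with limma 3.58.1 (trended empirical Bayes, R 4.3.3) without covariates, and p-values were adjusted by the Benjamini-Hochberg method over all genes tested, with calls under 0.05. The second comparison used group means of all 56 mice. Replicates were separate mice. The code was tested on simulated counts.

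Named genes were the 10 with the largest called difference in each direction, up to 3 called members of each gene list or the 2 with the smallest p-value where none was called, all clock genes, and the 5 with the smallest p-value in each direction of the second comparison. Mt1, H1f2, Vip, Nms, Avp, Oxt, Trh, Hmgn2, Utrn, Sgk1, Slc17a7, Tcf7l2, Hspa1b, Ctsd, Pspc1 and Parn, and genes named first in the closing section, were named after their values were seen. A few genes that the rule names are not reported here. The comparison and the gene lists were chosen with earlier results of these data known. Alternatives were the scale, pseudocount, filter, centring, length and GC trends, each mouse left out, a replicate block, the fit over all mice, limma-voom on whole reads and a minimum difference. Leaving out DRF mouse 1 and NRF mouse 2 together, and DRF mouse 1 with the trends removed, were added after seeing the data.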

Additional observations from a re-analysis of the deposited data

Results flagged for a closer look

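In groups of 4 mice, a mouse far from the other 3 was looked for in 106 named genes. Chance puts about 1 in 20 groups past Dixon's critical value for the gap divided by the range, and 12 of 212 groups were past it. In DRF these were Mt1 (0.910, DRF mouse 1 high), Edem1 (0.910), Wwc1 (0.899), Fam166c (0.906, DRF mouse 1 low), Tlcd1 (0.922) and Anxa1 (0.9002, DRF mouse 1 high). In NRF they were Rorb (0.849), Edem1 (0.831), Dnajc3 (0.846), Luc7l3 (0.953), Sirt5 (0.886) and Zcchc7 (0.8291).

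The DRF minus NRF difference at ZT8 differed from the mean of the other 6 times in 28 genes (limma, adjusted p under 0.05). Among those reported here, the contrast was lower at ZT8 in Mt2 (-1.11), Fam166c (-0.69), H1f2 (-0.66), Icosl (-0.58), Mt1 (-0.55), Plpp2 (-0.45), Tlcd1 (-0.37), Nle1 (-0.37), H1f0 (-0.36), Ndufv3 (-0.34), Haghl (-0.34), Cuedc1 (-0.28), Tk2 (-0.28), Pspc1 (-0.27), Parn (-0.26), Psmf1 (-0.24) and Slc20a2 (-0.21). It was higher in Cmc4 (0.42), Adcy4 (0.36), Zcchc7 (0.34), Prdm10 (0.33), Unc13b (0.32), Tmc7 (0.31), Exd2 (0.24) and Grin3a (0.24).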

How the results depend on the processing

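The count of 1 call between the 8 mice was 0 on the logarithm of the deposited value with either pseudocount (1318 genes higher and 926 lower at an unadjusted p-value under 0.05 with a pseudocount of 1 by limma), 13 with length and GC trends removed (3 higher, 10 lower) and 28 with all 56 mice. It ran from 1 to 864 with 1 mouse left out, and was 468 without DRF mouse 1 and NRF mouse 2 and 5 without DRF mouse 1 with the trends removed; the cause was not tested. It was 1 without the filter, with a mean of at least 1, with median-centred libraries, with limma-voom on whole reads and with a minimum difference of 0.2. The replicate block gave 0 calls, also with the trends removed (1187 higher and 933 lower at an unadjusted p-value under 0.05 by limma without that removal), and Mt2 then had adjusted p-values of 0.317 and 0.197. Deviations of same-numbered mice had correlations of -0.290, -0.532, 0.117 and -0.0323. Those of DRF mouse 1 and NRF mouse 2, the highest of their regimens for striatal markers, had a correlation of 0.542. Differences between the dissected blocks can thus enter these values, which cannot decide whether same-numbered mice were handled together. A shared collection or library batch was not tested, and the loss of the Mt2 call in the replicate block is not set aside. No mouse had its highest correlation with the mouse of its own number.

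The 28 calls against the other times were 18 on the logarithm of the deposited value plus 1, 78 with the trends removed, 75 with the trends removed and the replicate block, 25 with the replicate block alone, 0 against ZT4 and ZT12 only, 160 without ZT16, 7 without DRF mouse 1 and NRF mouse 2, and 8 to 32 with 1 mouse left out. Of 532 values of the 28 genes under alternatives, 324 stayed past the threshold and 208 did not, and none changed direction.

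Of 1931 values of named genes in the first comparison, 1780 kept direction and side of the threshold, 110 passed it and 4, all of Mt2, lost it. The 37 that changed direction belonged to clock genes with small differences. On the logarithm of the deposited value with pseudocounts of 1 and 0.1, they were Bhlhe40 (0.0041 and 0.0042), Bhlhe41 (0.0065 and 0.0066), Npas2 (0.0070 and 0.0072) and Nfil3 (0.0074 and 0.0074). With the trends removed, with and without the replicate block, they were Npas2 (0.0057), Rorb (-0.11) and Nfil3 (0.063). Without DRF mouse 1 and with the trends removed they were Per1 (0.030), Per2 (0.041), Ciart (0.021), Rorb (-0.056) and Nfil3 (0.11), and without DRF mouse 1 and NRF mouse 2 they were Per2 (0.0015) and Npas2 (0.065). With 1 mouse left out, ranges were -0.10 to 0.049 for Per1, -0.10 to 0.023 for Per2, -0.044 to 0.0024 for Bhlhe40, -0.035 to 0.033 for Bhlhe41, -0.11 to 0.16 for Npas2, -0.047 to 0.12 for Rorb and -0.046 to 0.024 for Nfil3.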
